A study of Mus musculus with 30 samples.

Results

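The variation between individual livers was described in 14 germfree mice, from 14 of the 30 arrays of the series, chosen by the germfree and high-fat diet wording of their titles. All 30 mice were C57BL/6J, ate a high-fat diet for 11 weeks and went without food for 10 h before the liver was taken. The germfree mice were raised without a microbiota, and the other 16, called conventional, served here only as a second set of livers in which spread and covariation could be measured. Neither sex, age, cage nor processing order was given in the sources used here. A probe was kept when its signal exceeded the negative control beads (detection p under 0.05) on all 14 germfree arrays, which left 7212 of 24613 probes, standing for 6402 genes, of which 5604 had a symbol. A further 553 probes passed on 13 of the 14 arrays and 364 on 12, and these are not described. Values are log2 signals after normalization between arrays, and spread is the standard deviation (SD) of those values between livers.

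The liver makes most plasma proteins and adjusts their output during inflammation, when acute phase genes such as the serum amyloid A genes and lipocalin 2 are induced. It also carries a circadian clock, whose output factors such as Dbp rise and fall each day, and it turns to fatty acid oxidation and gluconeogenesis, partly through the nuclear receptor PPARA, when food is absent.

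The germfree arrays differed in mean raw signal and less in the share of probes detected. Mean raw signal ran from 133 to 359 intensity units and the share of probes detected from 36.6% to 41.7% in the germfree set, with the lowest mean signal in liver 3, and pairwise correlations of germfree arrays lay between 0.977 and 0.993. No array was a copy of another. Conventional array 6 had a mean raw signal of 85.5 and 33.7% of probes detected, below every germfree array on both measures. It was kept in the comparisons with conventional livers. Of 27 hepatocyte plasma protein genes with a probe on the array, 25 were detected on all 14 livers, and Apoa1, the main protein of high-density lipoprotein, had a mean log2 signal of 14.87.

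Most genes varied little between the germfree livers, and a small set led by Fgg and Lcn2 varied widely. The median SD over the 6402 genes was 0.24, with quartiles of 0.19 and 0.31, and 234 genes (3.66%) had an SD of at least 0.5, of which 129 (2.01%) also had one in the conventional livers, where 257 genes (4.01%) did. These SDs chose the genes described here and are given without a test. Just inside that limit lay Prkd3, a protein kinase (0.5008), and Coq8b, of coenzyme Q synthesis (0.5004). Psmb9, an immunoproteasome subunit (0.499), and Hrg, a plasma glycoprotein (0.498), lay just outside. The number past 0.5 depended on the processing, since it was 122 without background correction, 109 in the authors' normalized values and 789 under median scaling of the arrays.

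The most variable gene was Fgg, the gamma chain of fibrinogen, with an SD of 1.53. Its log2 signal was 5.01 in the lowest liver (liver 7), 6.58 at the median and 9.87 in the highest (liver 5), a 29.1-fold range. The lowest value lay near the level of undetected probes, since further probes of Gng5 detected in no liver averaged 4.56 and 4.62. The probe for Fga, the alpha chain of the same protein, had a mean of 14.79, beside 6.96 for Fgg. Its SD was 0.19 and it ran from 14.42 to 15.002 in the same livers. These values lie near the top of the signal scale, where a probe can saturate and its spread can be understated. How well the Fgg probe reads its transcript was not tested. Lcn2, lipocalin 2, a siderophore-binding acute phase protein, came next with an SD of 1.484, from 8.38 in liver 3 through a median of 12.33 to 13.44 in liver 11. Livers 1, 2, 3 and 7 were the 4 lowest for Lcn2 (9.90, 10.02, 8.38 and 10.72), and the other 10 livers lay at 12.06 or above. Wfdc21, a whey acidic protein family member, followed with an SD of 1.197, and Mup2, a major urinary protein, with 1.19. Mup3, of the same family, had an SD of 0.18 around a mean of 14.46, also near the top of the scale.

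Enzymes and hormones of amino acid, bile acid and fasting metabolism were among the other genes of largest spread. Bhmt, which remethylates homocysteine with betaine, ranged from 8.18 in liver 7 through a median of 9.63 to 12.05 in liver 4 (SD 1.11). Tdo2, which opens the tryptophan ring, had an SD of 1.06, and Glul, glutamine synthetase of pericentral hepatocytes, had 0.87. Cyp7a1, which commits cholesterol to bile acids, ran from 8.12 in liver 11 through 9.60 to 10.99 in liver 2 (SD 0.90). Among genes tied to PPARA and fasting, Acot3, an acyl-CoA thioesterase, had an SD of 1.05, Pdk4, which inhibits pyruvate dehydrogenase, 0.998, and Fgf21, a fasting hormone, 0.88. Pck1, the gluconeogenic enzyme, had 0.90. Apoa4, an apolipoprotein of triglyceride-rich particles, ran from 7.12 in liver 7 to 10.46 in liver 3 (SD 1.02). The livers at the extremes differed from gene to gene, so no single liver was the outlier for all of these genes.

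**Figure D1:**
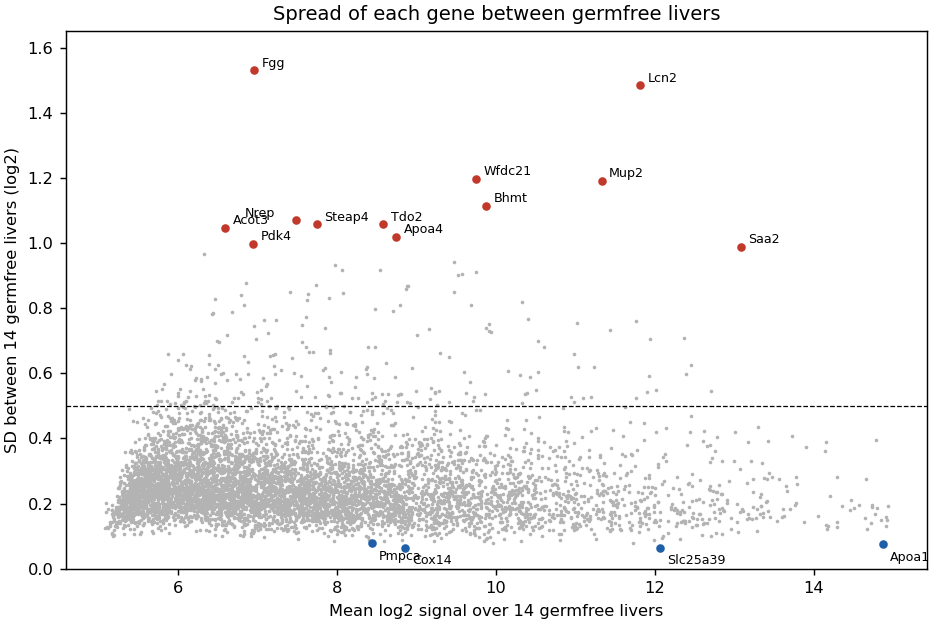
Each grey point is 1 of 6402 genes, with its mean log2 signal over 14 germfree livers on the x axis and its SD on the y axis. The dashed line marks an SD of 0.5. The 12 named genes of largest SD are red and the 4 of smallest SD are blue, and Fgg and Lcn2 stand near 1.5 at very different signal levels.

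**Figure D2:**
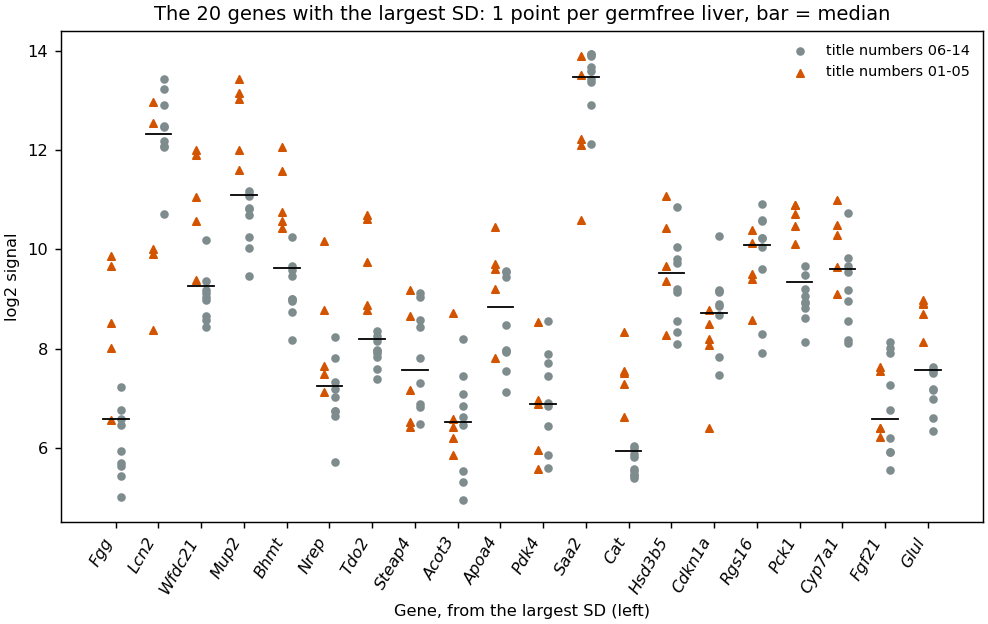
Log2 signal in each of the 14 germfree livers for the 20 genes of largest SD, with livers titled 01-05 as triangles, those titled 06-14 as circles and the median as a bar. For Cat, Pck1, Mup2 and Glul the triangles lie above the circles. For Lcn2, Saa2 and Cdkn1a the single lowest point, liver 3, is a triangle, and the next lowest Cdkn1a points, livers 7 and 10, are circles.

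The steadiest genes included several mitochondrial proteins and an abundant apolipoprotein. Cox14, a cytochrome c oxidase assembly factor, had the smallest SD, 0.063, with all 14 livers between 8.77 and 8.99. Slc25a39, a mitochondrial carrier, had 0.064, Apoa1 0.075, Pmpca, a subunit of the mitochondrial processing peptidase, 0.078, and Mrps21, of the mitochondrial ribosome, 0.078. Next came Zfand3 (0.085), the complex I subunit Ndufa9 (0.086), Limd1 (0.086), Mrps33 of the mitochondrial ribosome (0.087) and Aamp (0.087). Zmynd11, Mapkap1 and Sel1l, a component of endoplasmic reticulum-associated degradation, were also among the 10 lowest for their signal level. Second probes detected on all 14 livers were less steady for Zmynd11 (SD 0.32), Mapkap1 (0.20) and Mrps33 (0.13). They had lower means (5.77, 5.81 and 8.70), and their r to the first probe was -0.04, 0.69 and -0.31. The abundance of Apoa1 places its probe near the top of the signal scale, where a probe can saturate, and the part of this in its small SD was not tested.

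Gene lists differed in the same way. The median SD was 0.17 in 33 respiratory chain genes, 0.19 in 19 ribosomal protein genes, 0.19 in 25 hepatocyte plasma protein genes and 0.19 in 22 proteasome genes, beside 0.24 over all genes. It was 0.39 in 25 acute phase and hepcidin genes, of which 10 had an SD of at least 0.5, 0.47 in 15 PPARA and fasting genes, of which 7 did, and 0.52 in 9 lipid droplet genes, of which 5 did. In 14 cholesterol synthesis and uptake genes it was 0.35, with 2 past 0.5, and in 12 circadian clock and output genes 0.32, with 3 past 0.5 (Dbp, Usp2 and Nr1d2). Relative to the trend of SD on mean signal (log2), the plasma protein list had a median of -0.04, near the -0.0008 over all genes. The respiratory chain, ribosomal protein and proteasome lists had medians of -0.27, -0.28 and -0.22. Within a list of small median SD single genes could still vary. Serpinc1, antithrombin, had an SD of 0.81 among the plasma proteins, and Cox7b, a cytochrome c oxidase subunit, 0.72 among the respiratory chain genes.

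Single livers carried part of the spread. Among the 234 genes with an SD of at least 0.5, the liver farthest from the gene's mean was liver 10 for 41 genes, liver 11 for 37, liver 4 for 34 and liver 3 for 31. In 14 of the 234, more than 50% of the squared deviation came from 1 liver, which was liver 11 in 10 of them. Lcn2 kept an SD of 1.15 without liver 3 and Saa2 one of 0.70, down from 0.99. Saa1 had an SD of 0.39, of which liver 3 gave 83.6% of the squared deviation, and 0.13 without it.

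To see which genes moved together, the 300 named genes of largest SD were clustered by their correlation over the 14 livers, which gave 13 groups of at least 5 genes, called A to M from the largest. Among all gene pairs the median correlation was 0.0039, and 2.05% of pairs reached 0.65. Correlations within the groups are set by the choice of members and carry no test in the germfree set, whereas the 16 conventional livers took no part in that choice. The mean z of a group is the average over its members of each liver's value after centring and scaling every gene over the livers.

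**Figure D3:**
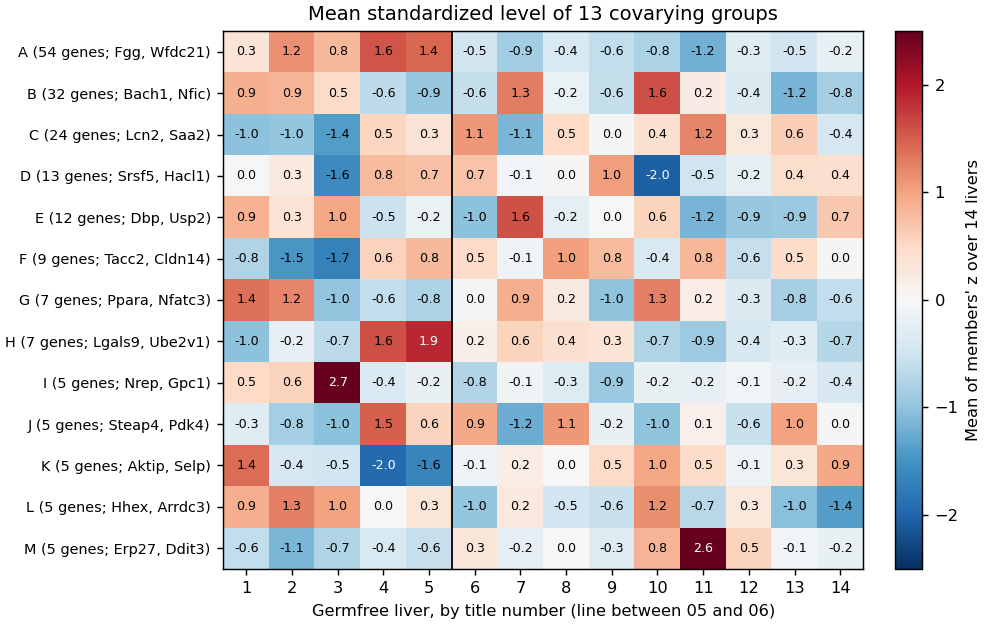
Mean z of the members of each covarying group (rows, with group size and 2 leading genes) in each germfree liver (columns, by title number). Red is above and blue below the mean over the 14 livers, and the line separates titles 01-05 from 06-14. Group A is positive in livers 1 to 5 and negative in the other 9, while group I is highest in liver 3 and group M in liver 11.

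Group A joined 54 genes of several functions, with a median correlation of 0.83 between members in germfree and 0.70 in conventional livers. It held Fgg, Wfdc21, Mup2, Bhmt, Tdo2, Pck1, Glul, catalase (Cat), regucalcin (Rgn), ceruloplasmin (Cp), antithrombin (Serpinc1), the endoplasmic reticulum chaperone Hspa5, the cytochrome P450 Cyp2c29 and small subunits of mitochondrial complexes (Atp5k, Atp5md, Ndufb4, Cox7b and Cox6c). The tightest pair was Ndufb4 and Atp5md, with r = 0.99, and in the conventional livers r = 0.94 (rho = 0.90, 0.92 without the 2 farthest livers, adjusted p = 4.33e-05 over 13 such pairs by 100000 permutations, two-sided). The mean z of group A was 0.32, 1.15, 0.80, 1.58 and 1.44 in livers 1 to 5 and ran from -1.19 to -0.18 in livers 6 to 14, so the sets did not overlap. Of its members 31 had a mean log2 signal under 8, a limit that 63.7% of all genes kept lay under. Only 1 of the 54, Eif4g2, had a second probe detected on all 14 livers, and it did not follow the first (r = 0.03).

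Group C held Lcn2 and several other acute phase genes. Of its 24 genes, 5 (20.8%) belonged to the acute phase list, beside 11 of the 300 clustered genes (3.67%) and 25 of the 6402 genes kept (0.391%), and of the list's other members Fgg lay in group A and Steap4 in group J. The members of group C included Lcn2, the serum amyloid A genes Saa2 and Saa3, the orosomucoid Orm2, serum amyloid P (Apcs), the cell cycle inhibitor Cdkn1a and the semaphorin and VEGF coreceptor Nrp1, with a median correlation of 0.73 in germfree and 0.69 in conventional livers. Saa2 ran from 10.59 in liver 3 through a median of 13.47 to 13.94 in liver 6, and Saa3 from 6.86 in liver 3 through 8.10 to 9.69 in liver 11. Cdkn1a ran from 6.41 in liver 3 through 8.73 to 10.27 in liver 11, and its second probe followed the first with r = 0.95. Lcn2 and Saa2 correlated with r = 0.95 in germfree livers, and in conventional livers with r = 0.86 (rho = 0.87, 0.77 without the 2 farthest livers, adjusted p = 4.33e-05, 100000 permutations, two-sided). Mean z of the group was lowest in livers 3, 7, 1 and 2 (-1.40, -1.14, -1.02 and -0.96) and highest in livers 11 and 6 (1.22 and 1.09).

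Lcn2 is also a granule protein of neutrophils, so the neutrophil and monocyte markers were read beside this group. Of 17 such genes on the array, Lcn2, S100a8, S100a9 and Plac8 were detected in all 14 livers. In none were 8 of the genes detected, among them Mpo, Elane, Ngp and Ltf, and the others were detected in some livers only. S100a8, a calgranulin subunit of neutrophils and monocytes, ran from 5.83 in liver 3 through 6.60 to 7.16 in liver 13, and its partner S100a9 from 5.28 in liver 10 through 5.83 to 6.78 in liver 5. The summed normalized signal of the list ran from 771 to 11700 with Lcn2 and from 438 to 661 without it. The sum without Lcn2 was 438 in liver 3, its lowest, and 617 in liver 11. In livers 1, 2 and 7, also low for group C, it was 549.5, 536.2 and 583.2, beside a median of 552.3. It was highest in liver 8 (661) and was 472.2 in liver 10, where the mean z of group C was 0.51 and 0.39. The part of these cells in group C was not tested. In bulk liver, more RNA per cell and more cells of a type cannot be told apart.

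The sequences before the start of 3 acute phase members of group C are shown because these genes moved together and share a short motif there. Capitals mark TTGNNCAA, the palindromic core bound by C/EBP factors, which drive acute phase genes. The sequences are from RefSeq (GRCm38.p6) and cover the 250 bases before the annotated start, 5′ to 3′ on the strand of the gene, at chr2:32387740-32387989 on the minus strand for Lcn2, chr7:46751583-46751832 on the plus strand for Saa2 and chr4:63362199-63362448 on the plus strand for Orm2.
Lcn2: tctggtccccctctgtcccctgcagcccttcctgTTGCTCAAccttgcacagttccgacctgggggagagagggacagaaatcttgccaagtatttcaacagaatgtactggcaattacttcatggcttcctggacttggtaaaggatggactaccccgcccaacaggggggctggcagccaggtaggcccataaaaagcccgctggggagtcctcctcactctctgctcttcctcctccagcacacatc
Saa2: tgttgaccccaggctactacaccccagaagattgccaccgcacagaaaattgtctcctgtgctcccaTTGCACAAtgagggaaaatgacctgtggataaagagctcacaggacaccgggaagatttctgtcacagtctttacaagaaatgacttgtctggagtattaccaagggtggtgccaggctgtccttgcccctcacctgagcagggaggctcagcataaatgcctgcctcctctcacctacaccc
Orm2: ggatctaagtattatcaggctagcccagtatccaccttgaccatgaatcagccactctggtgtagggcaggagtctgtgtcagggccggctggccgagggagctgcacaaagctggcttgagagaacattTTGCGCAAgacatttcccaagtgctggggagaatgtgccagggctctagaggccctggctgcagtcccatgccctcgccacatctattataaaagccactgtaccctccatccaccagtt
The motif starts 216, 183 and 120 bases before the start of Lcn2, Saa2 and Orm2. It was found on either strand in 3 of the 19 group C members with an entry in the table, these 3 genes, beside 5.65% of all 32851 promoters of the same length. The letters of NF-kB, STAT, E-box and D-box motifs were searched as well, in groups C and E. In group C they matched 3, 1, 0 and 0 of the 19 members, beside 16.5%, 7.02%, 6.02% and 5.43% of all promoters. In group E the C/EBP letters matched 0 of 11 members with an entry, and the others 1, 2, 0 and 2. The motif and the genes shown were chosen after the values were seen, and a match of letters is not a measured binding site.

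Group E ran against group C. Its 12 genes were led by Dbp, a clock output transcription factor, and Usp2, a deubiquitinase with a daily rhythm, and included Apol7a, Hes6, Psmb9, the mitochondrial carbonic anhydrase Car5a and Gstm4, with a median correlation of 0.73 in germfree and 0.62 in conventional livers. Dbp ran from 7.39 in liver 13 through a median of 8.87 to 10.21 in liver 7, and Usp2 from 6.51 in liver 13 through 7.61 to 8.69 in liver 7. The mean z values of groups C and E correlated with r = -0.87 over the germfree livers and with r = -0.87 over the conventional livers. The germfree value describes groups chosen in the same livers and carries no test, and it was the largest in size among 78 pairs of groups. In the conventional livers the adjusted p was 0.00312 over the 78 pairs by permutation, two-sided, and 11 of the pairs passed 0.05. For single genes, Lcn2 and Dbp correlated with r = -0.61 in germfree livers and with r = -0.56 in conventional livers (rho = -0.55, r = -0.69 without the 2 farthest livers). Saa2 and Dbp correlated with r = -0.57 in germfree and r = -0.40 in conventional livers (rho = -0.63, r = -0.64 without the 2 farthest livers). Over these 2 gene pairs in the 16 conventional livers, r did not pass the adjusted threshold (p = 0.0501 and p = 0.121, 100000 permutations, two-sided), while rho did (p = 0.0288 and p = 0.0211). The hour at which each liver was taken was not given in the sources used here.

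**Figure D4:**
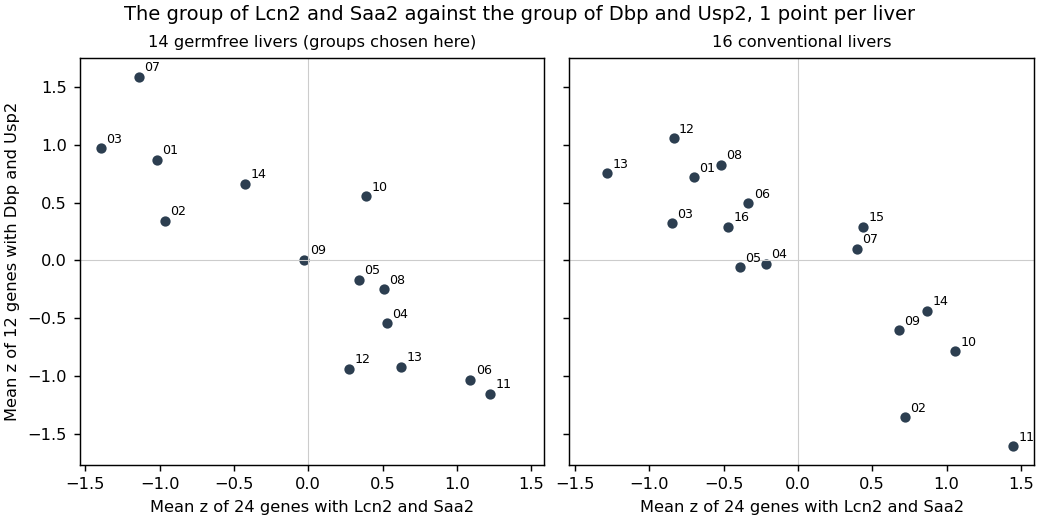
Mean z of the 24 genes grouped with Lcn2 and Saa2 (x axis) against mean z of the 12 genes grouped with Dbp and Usp2 (y axis), 1 point per liver with its title number, in 14 germfree livers (left) and 16 conventional livers (right). In both panels livers with high scores for the group of Lcn2 have low scores for the group of Dbp, with r = -0.87 in each.

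Group B was the second largest. It had 32 genes, including the heme-responsive repressor Bach1, the transcription factors Nfic and Zbtb7a and the metabolic coactivator Ppargc1a, and a median correlation of 0.80 in germfree and 0.59 in conventional livers, with its highest mean z in livers 10 (1.61) and 7 (1.27). Of its members 5 had a second probe detected on all 14 livers, with r to the first from -0.05 (Nfic) to 0.87 (Dag1). The second Nfic probe had a mean of 6.87 beside 6.98 and an SD of 0.31 beside 0.70. Group D, 13 genes, was lowest in livers 10 (-2.03) and 3 (-1.60). Group D held the splicing factor Srsf5, the peroxisomal lyase Hacl1, the cytochrome P450 Cyp2c54 and the bilirubin-conjugating enzyme Ugt1a1. A second probe detected on all 14 livers existed for 2 members, with r = 0.60 for Srsf5 and 0.94 for Ugt1a6a. The second Srsf5 probe had an SD of 0.19 beside 0.62 for the first. Group F, 9 genes with the survival factor Bcl2l1, the glutathione-degrading enzyme Chac1 and the stress gene Gadd45g, was lowest in livers 3 (-1.69) and 2 (-1.45).

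Group J joined Steap4, a metalloreductase, with Pdk4 and Plin2, the lipid droplet coat protein. Steap4 ran from 6.42 in liver 2 through 7.57 to 9.19 in liver 4, and Plin2 from 9.48 in liver 10 through 10.49 to 11.70 in liver 4. A second Steap4 probe, with an SD of 0.89, correlated with the first at r = 0.48. The median correlation of this group was 0.76 in germfree and 0.18 in conventional livers, and its tightest pair, Steap4 with 2010003K11Rik (r = 0.89), had r = 0.48 in conventional livers (rho = 0.52, 0.40 without the 2 farthest livers, adjusted p = 0.0746 by permutation). Group G, 7 genes with the receptor Ppara, had medians of 0.72 and 0.46. The difference between the sets of livers in these correlations was not tested.

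Groups I and M were each far highest in 1 liver. Group I held Nrep, the proteoglycan Gpc1, the muscle troponin Tnnc2, the fatty acid synthase Fasn and E-cadherin (Cdh1), and its mean z was 2.69 in liver 3 and at most 0.56 elsewhere. Fasn was 11.14 in liver 3 and between 9.30 and 10.46 in the others, while Tnnc2 was 7.01 in liver 3 and between 5.02 and 5.45 in the others. When each liver was left out in turn, the median correlation of group I fell to as little as 0.28, from 0.72. The summed signal of the 12 muscle marker genes on the array was 834 in liver 3 and between 314 and 408 elsewhere. Of these genes, 5 (Ckm, Myh4, Myl1, Cnn1 and Des) were detected in none of the 14 livers and 2 (Tnnc2 and Tpm2) in all. The others were detected in some livers only, and the part of muscle in group I was not tested. Group M held the endoplasmic reticulum protein Erp27, the stress factor Ddit3, the amino acid transporter subunit Slc3a1 and the glutathione peroxidase Gpx3, with a mean z of 2.56 in liver 11 and at most 0.84 elsewhere. Slc3a1 was 9.29 in liver 11 and between 7.10 and 8.56 in the others. With 1 liver left out, the median correlation of group M fell to as little as 0.49, from 0.75. In conventional livers the median was 0.57 for group M and 0.33 for group I. Their tightest pairs there had r = 0.61 (Erp27 with Slc3a1, adjusted p = 0.0206 by permutation) and r = 0.39 (Tnnc2 with Fasn, adjusted p = 0.17). The bile duct and gallbladder marker list summed to 4344 in liver 11 and to between 2177 and 3349 elsewhere, and its part in group M was not tested. Krt19, Epcam and Cftr of this list were detected in no liver, whereas Sox9, Tff3, Wfdc2, Anxa4, Krt8 and Krt18 were detected in all 14. Sox9, a bile duct transcription factor, and Tff3, a trefoil factor, were highest in liver 11, at 8.69 and 11.06, and without Tff3 the list summed to 2206 in liver 11, within the 1881 to 2902 of all 14 livers.

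Group H, 7 genes with the lectin Lgals9 and the ubiquitin-conjugating variant Ube2v1, was highest in livers 5 (1.89) and 4 (1.61) and had a median correlation of 0.81 in germfree livers. Its mean z correlated with the share of probes detected on the array (r = 0.80), and the part of array quality in this group was not tested. Group K, 5 genes with Aktip and P-selectin (Selp), was lowest in the same livers 4 (-1.95) and 5 (-1.64). Group L, 5 genes with the homeobox factor Hhex, had a median correlation of 0.69 in germfree and 0.21 in conventional livers.

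Among gene pairs listed for a known shared pathway or cell type, 34 of 55 had both genes detected on all 14 livers, and 14 correlated past an adjusted p of 0.05, all with a positive r. By rank, 8 of the 34 passed, and 10 of the 14 also passed in the conventional livers with the same sign. The tightest were Cyp4a10 and Cyp4a14, neighbouring PPARA target genes, with r = 0.93 (rho = 0.91, 0.85 without the 2 farthest livers, adjusted p = 0.00034 by permutation, n = 14) and r = 0.89 in conventional livers. These are similar genes, and how far each probe reads only its own was not tested. The MHC class II pairs H2-Aa with H2-Eb1 (r = 0.81) and Cd74 with H2-Ab1 (r = 0.78) passed in both sets of livers, as did the complement pair C1qa and C1qb of Kupffer cells (r = 0.77), the sterol synthesis pair Sqle and Hmgcs1 (r = 0.76) and the lipogenic pair Fasn and Acaca (r = 0.80). Dbp correlated with its clock partners Nr1d1 (r = 0.73) and Tef (r = 0.67) in both sets.

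Some listed pairs were held up by single livers or by 1 set of livers. Saa1 correlated with Saa2 (r = 0.79) and with Lcn2 (r = 0.74), but without the 2 farthest livers r was 0.13 and 0.12, and in conventional livers r was -0.31 and -0.37. Dbp and Per2 had r = 0.63 in germfree and -0.01 in conventional livers, and the pair lost its call in 9 of 14 fits with 1 liver left out. Hspa5 with Creld2 (r = 0.62) lost its call in as many fits, but had r = 0.54 without the 2 farthest livers and passed in conventional livers (r = 0.77, adjusted p = 0.00558 by permutation). Cyp4a14 and Pdk4 had r = 0.65 in germfree and 0.15 in conventional livers. The number of pairs past the threshold was 8 without liver 3, 7 without liver 7 and 8 without liver 10. Several listed pairs did not pass, among them the metallothioneins Mt1 and Mt2 (r = -0.20, and -0.38 in conventional livers) and the bile acid enzymes Cyp7a1 and Cyp8b1 (r = 0.05, and 0.32 in conventional livers). The chaperones Hspa5 and Pdia4 had r = 0.06, or 0.32 without the 2 farthest livers, and in conventional livers r = 0.67 (adjusted p = 0.0129 by permutation).

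Spread was then compared with that of the 16 conventional livers. The same genes tended to vary in both, with a rank correlation of 0.64 between the SDs over 6402 genes, which are not independent, and with 50 genes shared between the 100 of largest SD in each set. The median SD was 0.24 in both sets, and 48.3% of genes had the larger SD in germfree livers. No gene passed an adjusted p of 0.05 for a difference in spread (limma on absolute deviations from the group median, 0% called), and 223 (3.48%) had an unadjusted p under 0.05, 101 (1.58%) with more and 122 (1.91%) with less spread in germfree livers, where 320.1 would be expected by chance. The variance ratio F test called 3 genes, all with less spread in germfree livers (0.0469%): Hk2, Cryab and Tcap, with SDs of 0.18, 0.26 and 0.41 against 1.06, 1.38 and 1.63. None of the 3 had an unadjusted p under 0.05 in the limma test (p = 0.273, 0.301 and 0.460). Hk2 is the hexokinase of muscle and fat, and Cryab and Tcap are muscle-rich genes. The mean log2 signals of Hk2, Cryab and Tcap were 5.23, 5.95 and 5.62 in germfree and 5.63, 6.28 and 5.97 in conventional livers.

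The genes leading each direction by unadjusted p are given as values, since none passed. Apoa4 had the smallest p with more spread in germfree livers, with an SD of 1.02 against 0.52 (p = 0.00023, adjusted p = 0.993). Its germfree values ran from 7.12 through 8.85 to 10.46 and its conventional values from 8.08 through 9.21 to 9.94. Slc22a5, the carnitine transporter, had SDs of 0.53 and 0.19, Plin2 0.60 and 0.29, and Lgals9 0.55 and 0.25. In the other direction Sqle, squalene epoxidase of sterol synthesis, had the smallest p, with an SD of 0.45 against 1.11 (p = 0.000999, adjusted p = 0.993). Its germfree values ran from 8.47 through 9.21 to 10.18 and its conventional values from 5.63 through 7.66 to 9.26. Celsr1, a cadherin of planar cell polarity, had SDs of 0.17 and 0.49. Cyp51, of the same pathway as Sqle, had SDs of 0.22 and 0.59, and Csad, of taurine synthesis, 0.29 and 0.67. Pfkfb3, which sets fructose 2,6-bisphosphate, had 0.33 and 0.84. In all, 56 genes (0.875%) had an SD at least 2 times larger and 75 (1.17%) at least 2 times smaller in germfree livers.

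**Figure D5:**
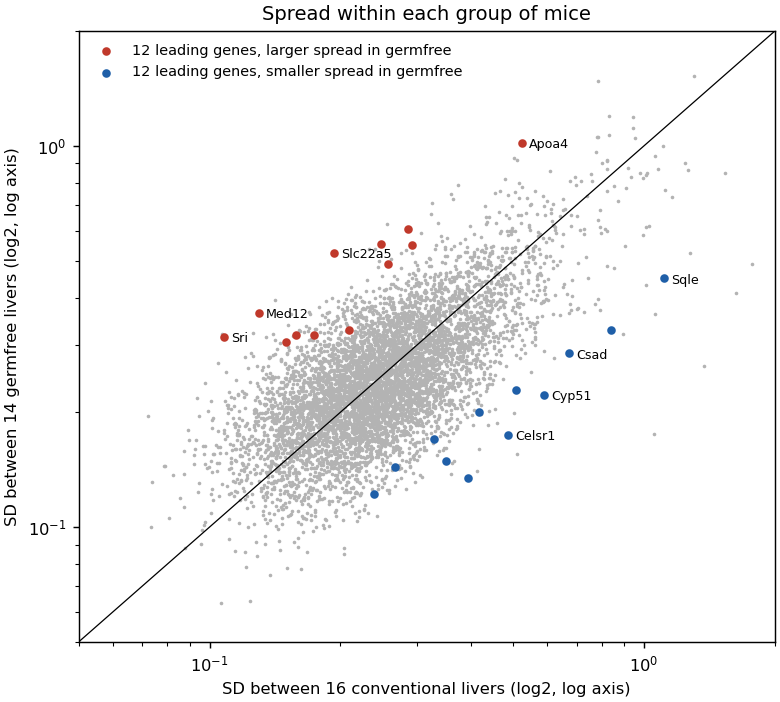
SD of each of 6402 genes between 16 conventional livers (x axis) and between 14 germfree livers (y axis), both on log axes, with the line of equal spread. The 12 genes of smallest unadjusted p in each direction are coloured. Apoa4 and Slc22a5 lie above the line and Sqle, Cyp51, Csad and Celsr1 below it, and no gene passed the adjusted threshold.

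Germfree livers titled 01 to 05 were set against those titled 06 to 14, a division that is no label of the study and that was proposed with earlier results of these data known, so its p-values describe a difference and do not test a condition. Of 6402 genes, 242 (3.78%) passed an adjusted p of 0.05 in limma, 183 (2.86%) higher and 59 (0.922%) lower in livers 1 to 5, and 1274 (19.9%) had an unadjusted p under 0.05. The values of the 2 sets did not overlap for 120 genes (1.87%). Group A supplied 52 of the 183, and 28 of its 54 members did not overlap, but these members were chosen because they vary together in the same livers. The first principal component of the 14 livers held 24.1% of the variance and differed in mean between the sets. Its means were 10.4 ± 11.97 (SD, n = 5) and -5.77 ± 5.36 (SD, n = 9), exact permutation p = 0.0035 and 0.0140 after adjustment over 4 array measures. The sets overlapped on it, with liver 1 at -4.76 and livers 6 to 14 between -15.38 and -0.96. It correlated with the mean z of group A (r = 0.92), so it is not a separate result. Mean raw signal, 233 ± 85.5 (SD, n = 5) against 254 ± 70.5 (SD, n = 9), and the detected share, 38.7% ± 1.88 (SD, n = 5) against 38.3% ± 1.51 (SD, n = 9), gave exact permutation p of 0.623 and 0.630. The count of genes was 27 under median scaling of the arrays (25 higher and 2 lower, with a median difference of -0.10 over all genes in place of -0.03), 472 without liver 1, 145 without liver 2 and 158 without liver 4.

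The genes higher in livers 1 to 5 were led by enzymes and small mitochondrial and signalling proteins. Gng5, a G protein gamma subunit, was 7.63, 8.02, 7.97, 8.28 and 8.06 in livers 1 to 5 and ran from 6.36 through 6.73 to 7.12 in livers 6 to 14. The difference was 1.23 ± 0.13 (SE) with an adjusted p of 6.99e-05. Cat, catalase, was 6.63, 7.55, 7.29, 8.34 and 7.51 against 5.405 through 5.57 to 6.05, a difference of 1.78 ± 0.20 (SE). For both genes every liver of the first set lay above every liver of the second, with liver 1 the lowest of the first. Pck1 was 10.11, 10.89, 10.47, 10.72 and 10.89 against 8.13 through 8.94 to 9.66, a difference of 1.63 ± 0.20 (SE). Rgn, a calcium-binding lactonase, differed by 1.57 ± 0.17 (SE) and Cp, the copper oxidase ceruloplasmin, by 1.27 ± 0.15 (SE).

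The respiratory chain was divided unevenly by this split. Of 33 genes, 7 were higher in livers 1 to 5 (Ndufb2, Ndufb5, Ndufb9, Sdhd, Cox7a2, Cox7b and Atp5a1) and none was lower, beside 2.86% higher and 0.922% lower over all genes, while the list's median difference was -0.09, beside -0.03 over all genes. Cox7b was higher by 1.31 ± 0.16 (SE), whereas Cox5a, of the same enzyme, had a difference of -0.12 ± 0.10 (SE) and Ndufa9 of complex I one of -0.03 ± 0.08 (SE). Other groups of the liver gave smaller counts: 3 of 25 plasma protein genes (Apoh, Serpinc1 and C8a) and 3 of 21 amino acid and urea cycle genes (Glul, Tdo2 and Bhmt) were higher, beside the same 2.86% over all genes, and none of 12 clock genes or 19 ribosomal protein genes passed in either direction.

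The genes lower in livers 1 to 5 changed by less. Fosl2, an AP-1 subunit, was 5.97, 6.02, 5.64, 6.36 and 6.12 in livers 1 to 5 and ran from 6.38 through 6.68 to 7.03 in the others, a difference of -0.69 ± 0.13 (SE) with an adjusted p of 0.00459. Gpr107 was 6.47, 6.54, 6.54, 6.50 and 6.50 against 6.73 through 7.01 to 7.17, a difference of -0.43 ± 0.09 (SE). Both separated the sets without overlap. Sema4a, a semaphorin, differed by -0.54 and Itih3, an acute phase protease inhibitor chain, by -0.45. Of the 10 genes leading this direction, all lost their call under median scaling, as did Nkiras1 among the 10 leading the other.

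Adipocyte markers were read beside the division because Pck1 is also made in fat. The summed signal of 11 adipocyte genes was 4332, 5830, 3345, 6319 and 4763 in livers 1 to 5 and ran from 2481 to 4358 in livers 6 to 14. Car3 and Pck1, which hepatocytes also express, gave between 73.1% and 94.8% of the sum. Plin4, the third member detected in all 14 livers, gave at most 13.04%. It was 6.97, 6.48, 6.80, 7.44 and 6.94 in livers 1 to 5 against 6.87 to 8.51 in the others. Fabp4, Plin1, Lep and Slc2a4 were detected in none of the 14 livers, and the remaining members in some livers only. The part of fat cells in the division was not tested. The 16 conventional livers carry title numbers of their own. Mean z of group A was positive in all 6 conventional livers numbered 1 to 6 (from 0.52 to 1.30) and ran from -1.25 to 0.36 in the 10 numbered 7 to 16, of which 7 were negative, a division seen in the values and given without a test. A batch, a litter or a cage behind the title numbers was not given in the sources used here and cannot be told apart from the animals themselves.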

How the data were processed

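Biotin-labelled liver cRNA of 14 germfree and 16 conventional mice was measured on single-colour Illumina arrays, 1 array per mouse. The authors deposited a table of raw probe intensity, averaged over beads and not normalized per the file headers, made with GenomeStudio per the submitters' processing notes, together with a detection p-value for every probe on every array, per the file headers. The authors also deposited normalized linear intensity values, used as an alternative after adding 16 and taking log2. A further 33 signal columns matched no sample and were not used.

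Signals of the 30 arrays were normalized with neqc in limma 3.58.1 (R 4.3.3): normexp background from the detection p-values, an offset of 16, quantile normalization and log2. Symbols came from the platform annotation, updated through RefSeq gene identifiers; 3629 of 24613 probes had none. A gene is its brightest probe among those detected (p under 0.05) on all 14 germfree arrays. The number of arrays limits the precision.

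Spread was compared with limma (lmFit, eBayes, two-sided) on absolute deviations from the group median, scaled for group size, and title sets with limma on log2 values, both with Benjamini-Hochberg adjustment. Correlations used 100000 permutations and array measures all 2002 divisions. Genes were clustered by average linkage on 1 - r, with the tree divided at 0.35. Named genes are those of largest and smallest SD, also relative to the trend of SD on mean, the leading genes of each test, the extremes of each gene list, listed pairs and leading members of covarying groups. Members, lists and the title division were chosen with earlier results of these data known.

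On simulated data with 6402 genes, the spread test recovered 2 of 100 genes with a 2-fold and 9 of 100 with a 3-fold larger SD in germfree livers and called 0 of 6202 unchanged genes. The title fit recovered 50 of 100 genes shifted by 0.5 and 95 of 100 shifted by 1, and called 4 of 6202 unchanged genes. Genes were simulated independently.

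Arrays of both groups share title numbers. Deviations of same-numbered arrays correlated between -0.22 and 0.39, with 7 of 14 over 0.1, so the numbers were not treated as pairs. Alternatives were other background and normalization steps, filters, probe choices, tests, a covariate for mean signal and each array left out. A median scaling restricted to probes that passed detection on every one of the 30 arrays was added after seeing the data. Plots used Python 3.11.15 with matplotlib 3.10.9.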

Additional observations from a re-analysis of the deposited data

How the results depend on the processing

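The count of genes with a spread difference was 0 under 14 of 15 alternatives and 3 with the F test, and 0 whenever 1 of the 30 arrays was left out. A replicate block by title number over 28 arrays also gave 0, as did those arrays without the block, so pairing changed no call. The title count was 27 under median scaling and ran from 145 to 472 with 1 liver left out. Listed pairs past the threshold were 22 under median scaling and 8 by Spearman's rho, and from 7 to 15 with 1 liver left out. Genes with an SD of at least 0.5 were 122 without background correction, 109 in the authors' values and 789 under median scaling, and from 207 to 257 with 1 liver left out. Under median scaling the first component followed log2 mean raw signal (r = 0.97) and the detected share (r = 0.67), each past the adjusted threshold, and the second component had r = -0.39 with the detected share. Over the 1000 genes of largest SD the first component had r = -0.059 with signal, against 0.076 over all genes, neither past the threshold.

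With 1 liver left out, the correlation of the first component with signal ran from -0.29 (without liver 4; -0.26 without liver 5) to 0.28 and with the detected share from 0.21 to 0.76 (without liver 7, now past the threshold). The second component's correlation with signal ran from 0.15 to 0.49, and with the detected share from -0.12 (without liver 3) to 0.45. Between title sets, the difference in mean signal ran from -42.9 to 4.25 (without liver 3), in detected share from -0.19 (without liver 5) to 0.99, in the first component from 12.5 (without liver 11, no longer past the threshold, as at 14.5 without liver 2) to 20.5, and in the second from -13.6 (without liver 11, now past it) to 1.64 (without liver 4). The causes were not tested. Among single results, title differences kept their side of the threshold in 167 of 180 checks, listed pairs in 106 of 112, and SDs moved in 20 of 160, all but Saa2 under median scaling being without background correction, in the authors' values or with the median absolute deviation. Low recovery in simulation limits what the spread count can show.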

Other observations

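Several genes of large spread joined none of the groups above. Hsd3b5, a male-biased steroid dehydrogenase of mouse liver, ran from 8.10 in liver 9 through a median of 9.52 to 11.07 in liver 2 (SD 0.94), and Rgs16, a regulator of G protein signalling, from 7.92 in liver 11 through 10.09 to 10.90 in liver 8 (SD 0.91). Igfbp1, an insulin-repressed binding protein, ran from 8.00067 in liver 7 through 9.50 to 11.15 in liver 4 (SD 0.85). Hamp, which encodes the iron hormone hepcidin, had an SD of 0.71 in germfree and 0.32 in conventional livers, and this difference in spread did not pass the limma test (adjusted p = 0.993, unadjusted p = 0.029). Tff3, a trefoil factor, was 11.06 in liver 11 and 10.18 in liver 12 and at most 9.36 in the other livers.

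Hba-a1, alpha globin, had an SD of 0.76 and was lowest in liver 10 at 9.13, with a median of 11.06 and a highest value of 11.80 in liver 13. The median SD was 0.39 in 7 Kupffer cell genes, 0.38 in 5 genes of MHC class II presentation and 0.30 in 14 interferon-stimulated genes, of which 2 had an SD of at least 0.5, beside 0.24 over all genes. In 18 heat shock and unfolded protein genes the median SD was 0.37 in germfree and 0.54 in conventional livers, with a median correlation between members of 0.20 and 0.57. These list values are descriptions, and the differences between the sets of livers were not tested.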
